A study of Mus musculus with 36 samples.

Results

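The response of PKP4-deficient keratinocytes to calcium was followed at 24 h: 6 of the 36 RNA libraries came from PKP4-KO cells grown for 24 h, 3 in medium with high calcium (HCM) and 3 in medium with low calcium (LCM). The labels define these libraries by genotype and time. PKP4-KO cells are primary keratinocytes of newborn Pkp4-/- mice, whose Pkp4 allele lacks exon 9. LCM holds 50 µM CaCl2, HCM is LCM with 1.2 mM CaCl2 added, and both contain EGF. Cells of Pkp4+/+ pups (WT) and PKP4-KO cells that carry GFP-tagged human PKP4 from a lentivirus (Rescue) were grown in the same media for 24 h or 72 h, with 3 libraries in each group. The calcium responses of WT at 24 h, of Rescue at 24 h and of PKP4-KO at 72 h share no library with the response described here and served for comparison. Rescue cells were made from PKP4-KO cells and selected with puromycin, and the WT cells were taken from other pups than the PKP4-KO cells, so that genotype, cell isolate and selection cannot be told apart. The labels state biological replicates but do not say whether they came from separate pups or cultures. The p-values therefore measure the spread between libraries of a group, estimated over all 36 libraries in 12 groups and not from the 6 libraries alone.

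Extracellular calcium is the classical switch of cultured mouse keratinocytes. At low calcium the cells keep dividing and show few features of the upper epidermis. After calcium is raised, cadherins engage between neighbouring cells, adherens junctions, desmosomes and tight junctions assemble, and genes of the spinous and later of the granular and cornified layers are switched on. PKP4 is a protein of the p120-catenin family that sits at cell junctions.

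The 6 libraries held 13794211 to 20732407 counted reads, and a count of 3 corresponded to 0.126 to 0.222 CPM (reads scaled to the size of the library). All levels below are CPM scaled with TMM factors (trimmed mean of M-values), given for libraries 1, 2 and 3 of a medium in that order. The keratinocyte identity was clear from 24 markers, all of them at 1 CPM or more in all 6 libraries, with summed levels of 68366 to 80426 CPM in HCM and 67934 to 82804 CPM in LCM. None of 10 fibroblast and none of 7 melanocyte markers reached 1 CPM in all 6 libraries, with sums of 1.18 to 3.40 CPM and 1.03 to 2.01 CPM. Immune markers summed to 6.86 to 12.6 CPM and endothelial markers to 3.87 to 6.21 CPM. The 5 Merkel cell markers summed to 27.0 to 38.3 CPM in HCM and 16.8 to 42.9 CPM in LCM. Of the 6 libraries, 2 stood apart from their groups. The mean log2 level of 76 ribosomal protein genes was 0.85 above its group mean in HCM library 3 and 0.98 above it in LCM library 1, whereas the other 4 libraries lay 0.12 to 0.73 below it. In these 2 libraries, a gene's deviation from the group mean correlated negatively with log2 gene length across genes (-0.468 and -0.536), against 0.247 to 0.516 in the others. Actb read 1536, 1380 and 5474 CPM in HCM and 4865, 2037 and 1848 CPM in LCM, high in the same 2 libraries. Counts of called genes are therefore also given without both.

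Pkp4 itself read 9.65, 8.24 and 8.42 CPM in HCM and 8.25, 9.99 and 8.71 CPM in LCM. The media overlapped, and the log2 fold change of HCM over LCM was -0.04 ± 0.16 (SE; adjusted p = 0.98). WT libraries of the same time read 41.5 to 48.9 CPM in HCM and 67.9 to 76.3 CPM in LCM, so all 6 libraries fit their genotype label. The reads that remain lie on the gene as annotated, and their position within it is not given by the counts.

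Of 15114 genes tested, 217 were higher and 211 were lower in HCM at an adjusted p below 0.05 (edgeR's quasi-likelihood test over all 36 libraries), which is 1.44% and 1.4% of the genes tested. The change was at least 2-fold for 98 of the higher and 51 of the lower genes. The HCM libraries lay above all LCM libraries for 211 of the 217 and below them for 207 of the 211, against 1062 (7.03%) and 1482 (9.81%) of all tested genes, but the test that made the calls used the same values. The median log2 fold change over all tested genes was -0.01. At an unadjusted p below 0.05, 2207 genes passed. The number of calls differed strongly between the fits. When the 6 libraries were fitted alone, 4 genes were higher and 6 lower. Without both libraries that stood apart, the counts were 126 and 105. With single libraries left out, 100 to 201 genes were higher and 109 to 190 lower. The higher count fell to 132 without HCM library 1, 100 without HCM library 2, 135 without LCM library 2 and 121 without LCM library 3. The lower count fell to 113 without HCM library 2, 134 without HCM library 3, 109 without LCM library 2 and 122 without LCM library 3. Of the 428 called genes, all kept the sign of their change in every alternative fit that included them. A call in the same direction in all 14 alternative fits was made for 10 genes, Zfp750, Il33, Dsg1a and Lgalsl among the higher and Trib3, Areg, Etv5, Arid5a, Sh2d5 and Rai14 among the lower.

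**Figure D1:**
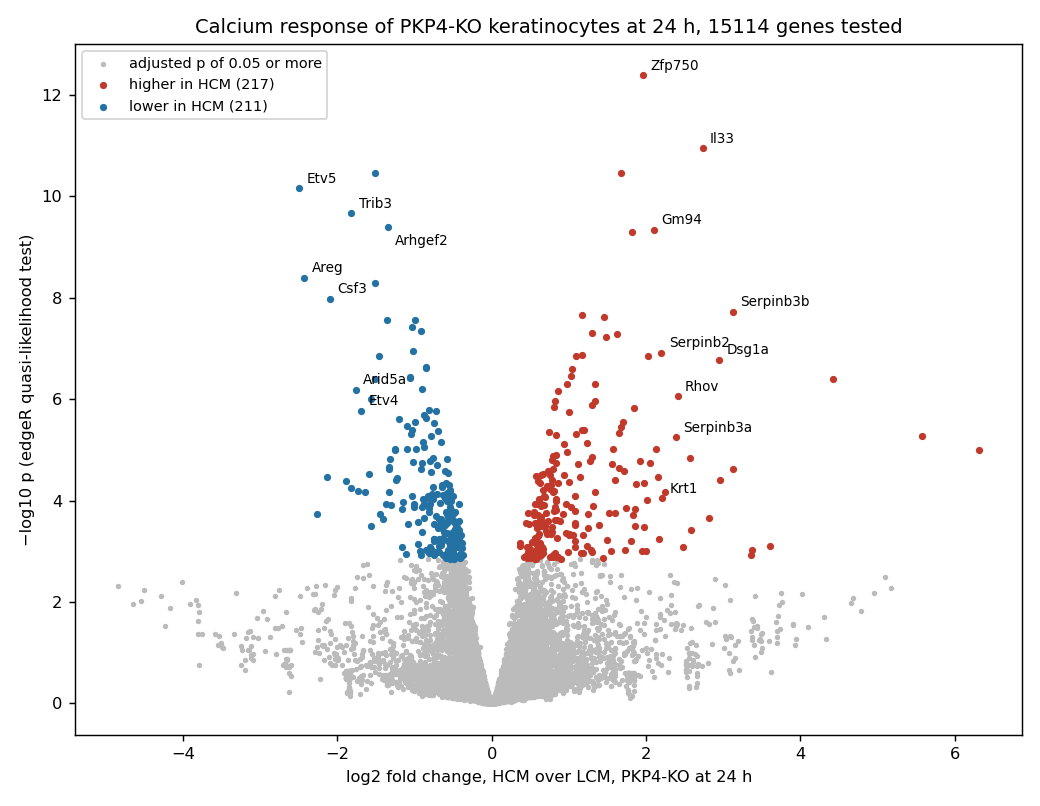
Log2 fold change of HCM over LCM in PKP4-KO keratinocytes at 24 h (x axis) against -log10 of the unadjusted p of edgeR's quasi-likelihood test (y axis), with 1 point for each of the 15114 tested genes. Genes at an adjusted p below 0.05 are coloured, 217 higher and 211 lower in HCM; Zfp750 and Il33 lie highest on the right and Sh2d5 (not named in the plot) and Etv5 on the left.

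The spinous keratins rose. Krt1, which with Krt10 forms the keratin network of suprabasal cells, read 143, 104 and 82.5 CPM in HCM and 38.6, 19.2 and 13.8 CPM in LCM. All HCM libraries lay above all LCM libraries, and the log2 fold change was 2.21 ± 0.48 (SE; adjusted p = 0.008). Krt10 read 135, 110 and 80.9 CPM in HCM and 41.7, 25.6 and 22 CPM in LCM. Its media did not overlap either, with a log2 fold change of 1.87 ± 0.39 (adjusted p = 0.0053). LCM library 1, 1 of the libraries that stood apart, was the highest of its group for both. Neither keratin passed the threshold without LCM library 3 (log2 fold change 1.93 for Krt1 and 1.69 for Krt10), and Krt1 also failed it without LCM library 2 (2.07). Krt1 lies at chr15:101753861-101759229 and Krt10 at chr11:99276072-99280195 of GRCm39. Of the 5 tested suprabasal keratins of the list, 2 rose and none fell, at a median log2 fold change of 0.37. This median was 0.89 to 1.49 with single libraries left out. The filter on low counts was rerun in each of those fits, which tested 15562 to 15583 genes against 15114. For this list and those below, the members behind such medians and counts can therefore differ from those of the main fit. Krt16, a keratin of activated keratinocytes, rose from 2734, 2248 and 1875 CPM to 4629, 3728 and 3197 CPM (log2 fold change 0.75 ± 0.16, adjusted p = 0.0061) and failed the threshold without HCM library 1 (0.60) or LCM library 3 (0.63). The basal keratins Krt5 and Krt14 did not pass the test, with log2 fold changes of -0.20 ± 0.18 and -0.04 ± 0.15, and their media overlapped. Of 20 basal keratinocyte genes, Igfbp3 rose and Itga3 fell, the former with no call without LCM library 1 (0.55).

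Of the desmosomal cadherins, Dsg1a and Dsg1b rose. Dsg1a, a desmoglein of differentiated cells, read 12, 13.1 and 9.90 CPM in HCM and 1.76, 0.904 and 1.87 CPM in LCM. All HCM libraries lay far above all LCM libraries, and the log2 fold change was 2.95 ± 0.43 (adjusted p = 8.8e-05). Dsg1b read 8.58, 7.45 and 5.24 CPM against 1.13, 1.71 and 2.20 CPM, again without overlap (log2 fold change 2.06 ± 0.40, adjusted p = 0.0027). Dsg1a and Dsg1b are close copies, and how reads that fit both were divided is uncertain. Perp, a tetraspan protein of desmosomes and a p53 target, rose from 799, 1015 and 935 CPM to 1826, 2241 and 1534 CPM (log2 fold change 1.03 ± 0.15, adjusted p = 0.00016). Among 14 tested desmosome genes, 3 rose, none fell and 13 had a positive log2 fold change, with a median of 0.82 against -0.01 over all tested genes. The count of 3 was the same without both libraries that stood apart and without any single library. The median was 0.37 to 0.96 with single libraries left out, lowest without HCM library 2. Dsp, the plakin that ties desmosomes to keratins, overlapped between media (log2 fold change 0.02 ± 0.31). Dsg3, the desmoglein of lower layers, had a log2 fold change of 0.61 ± 0.26 and did not pass (adjusted p = 0.27).

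Among the tight junction genes, Cldn1, the claudin of the epidermal barrier, rose from 1.90, 3.36 and 3.28 CPM to 6.66, 8.12 and 7.02 CPM (log2 fold change 1.33 ± 0.21, adjusted p = 0.0002). The media did not overlap. Ocln, Marveld2 and Cgn, which code for occludin, tricellulin and the plaque protein cingulin, also passed the test at low levels, with log2 fold changes of 1.98, 1.83 and 0.99. Ocln and Marveld2 overlapped between the media, both through HCM library 3 at 0.739 and 0.295 CPM. Marveld2 lost its call without any library but HCM library 3 and LCM library 1 (1.59 to 1.67), Ocln without LCM library 3 (1.59), and Cgn without any library but HCM library 3 (0.71 to 1.16). In all, 4 of 19 tested tight junction genes rose, none fell, and the median log2 fold change was 0.08 (0.003 to 0.23 with single libraries left out). The count was 3 without both libraries that stood apart, 2 without HCM library 1, HCM library 2 or LCM library 2, and 1 without LCM library 3. In the adherens junction, Nectin4 rose from 10.9, 6.12 and 7.31 CPM to 20.8, 14.9 and 23.7 CPM (log2 fold change 1.29 ± 0.25) as the 1 called gene of 19. Cdh1, E-cadherin, read 85.5, 84.8 and 79.1 CPM in HCM and 41.5, 61.4 and 69.7 CPM in LCM. These libraries did not overlap, yet the log2 fold change of 0.53 ± 0.18 did not pass (adjusted p = 0.12). Gja1, the connexin 43 of gap junctions, rose from 90.7, 101 and 120 CPM to 134, 152 and 182 CPM (log2 fold change 0.58 ± 0.12, adjusted p = 0.0041). Its call was lost without TMM factors (0.56), without the filter on low counts (0.59) and without both libraries that stood apart (0.37). Gjb2, connexin 26, read 14.2 to 21.7 CPM in HCM and 20.0 to 29.0 CPM in LCM without passing.

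Transcription factors of epidermal differentiation were called in 1 direction. Of 38 tested, 7 rose and none fell, at a median log2 fold change of 0.24, and the count was also 7 without both libraries that stood apart. With single libraries left out the count was 6 to 8 and the median 0.15 to 0.29. Zfp750, a zinc finger factor needed for terminal differentiation at chr11:121401804-121410620, read 28.5, 29.7 and 23.9 CPM in HCM and 6.42, 6.98 and 7.68 CPM in LCM. The media were far apart compared with the spread within them, and the log2 fold change was 1.96 ± 0.15 (adjusted p = 6.3e-09). Grhl3, a grainyhead factor of barrier formation, rose from 6.2, 10.7 and 7.12 CPM to 26.6, 25.4 and 15.1 CPM (log2 fold change 1.48 ± 0.20, adjusted p = 4.1e-05). Its relative Grhl1 rose from 7.83, 8.53 and 6.88 CPM to 22.7, 22.7 and 11.6 CPM (1.30 ± 0.21). For both, HCM library 3 was the lowest of its medium and still above all LCM libraries. Hopx, Ehf and Ovol1 rose by 1.04, 0.81 and 0.84 on the log2 scale, with no call for Ehf without HCM library 1 (0.70). Id2, an inhibitor of helix-loop-helix factors, rose from 12.6, 26.0 and 21.2 CPM to 41.5, 56.9 and 34.2 CPM (1.15 ± 0.23) and lost its call without HCM library 2 (0.92). Klf4, a factor of the granular layer, was not called (log2 fold change 0.21 ± 0.20). In the Notch pathway, Notch3 rose from 0.493, 0.803 and 0.843 CPM to 3.40, 2.43 and 1.99 CPM (1.84 ± 0.30), the 1 call among 19 genes, and Notch1 overlapped between media (0.52 ± 0.22).

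**Figure D2:**
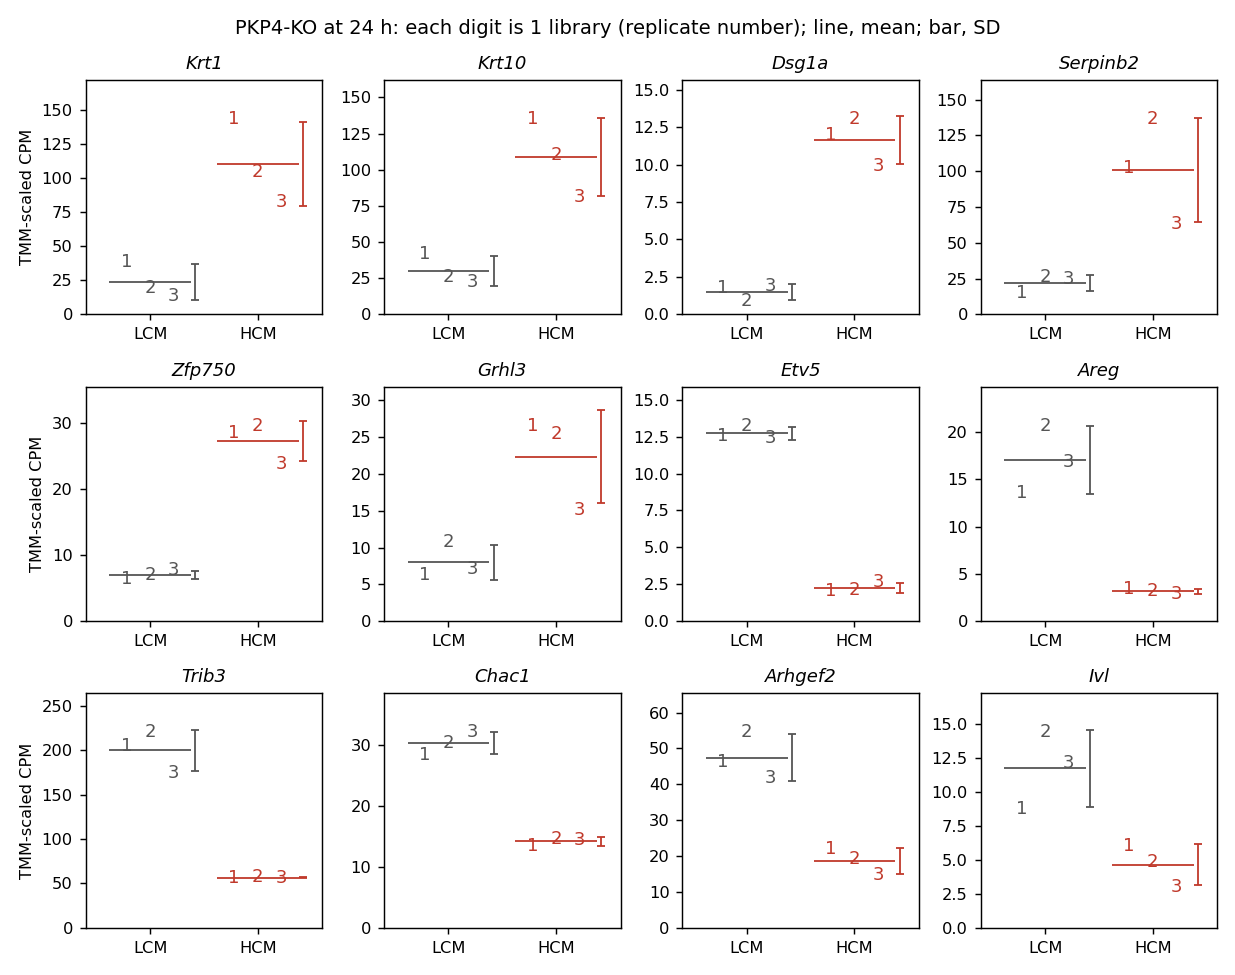
TMM-scaled CPM (y axes, linear from 0) of 12 genes in the 3 LCM and 3 HCM libraries of PKP4-KO keratinocytes at 24 h; digits are library numbers, lines are means and bars are SD (n = 3). The media do not overlap for any of the 12 genes, with Krt1, Krt10, Dsg1a, Serpinb2, Zfp750 and Grhl3 above and Etv5, Areg, Trib3, Chac1, Arhgef2 and Ivl below their LCM levels in HCM.

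Of 52 tested cornified envelope genes, 1 rose and 1 fell, which is near the share over all tested genes (1.44% higher and 1.4% lower). The gene that rose was Tgm3, an epidermal transglutaminase that crosslinks the envelope (58.6, 46.2 and 28.6 CPM in HCM, 29.2, 28.6 and 20.2 CPM in LCM; log2 fold change 0.78 ± 0.19, adjusted p = 0.018). Tgm3 overlapped between the media through HCM library 3, and its call was lost without HCM library 1 (0.53), HCM library 2 (0.74) or LCM library 3 (0.62). The gene that fell was Ivl, involucrin, an early envelope precursor at chr3:92478209-92481042. Ivl read 6.01, 4.89 and 3.03 CPM in HCM and 8.74, 14.4 and 12.1 CPM in LCM. All HCM libraries lay below all LCM libraries, and the log2 fold change was -1.33 ± 0.28 (adjusted p = 0.0067). Without HCM library 3 or LCM library 2 its log2 fold change was -1.11 or -1.16 and missed the threshold. Tgm1, the membrane-bound transglutaminase, read 18.0, 12.4 and 13.7 CPM against 13.7, 9.24 and 8.43 CPM (0.50 ± 0.21, adjusted p = 0.24). Loricrin (Lor) read 2.59 to 3.36 CPM in HCM and 1.55 to 2.46 CPM in LCM (0.47 ± 0.41), and filaggrin (Flg) lay between 0 and 0.552 CPM, near the floor. The median log2 fold change of the list was 0.36, with 34 of 52 values positive. With single libraries left out this median was 0.004 to 0.41, lowest without HCM library 3. Of 30 barrier lipid genes, 3 rose, Sptlc3 of sphingolipid synthesis (1.09 ± 0.19), Cyp4f39 of acylceramide synthesis (0.76 ± 0.21) and the lipase gene Lipk (1.30 ± 0.35), and the median was 0.01. Cyp4f39 and Lipk lost their calls whichever of the 6 libraries was left out (0.69 to 0.84 and 1.17 to 1.39). Of 25 epidermal proteases and inhibitors, 4 rose, none fell, and the median was 0.57, with 2 called when both libraries that stood apart were left out. The median was 0.37 to 0.59 with single libraries left out. The 4 were Klk10, Klk14, Serpinb3a and Serpinb5. The kallikrein gene Klk10 rose from 174, 171 and 183 CPM to 308, 297 and 285 CPM (0.75 ± 0.15, adjusted p = 0.0039). Of 16 spinous layer genes, Notch3, Lypd3 and Serpinb2 rose and Ivl fell, at a median of 0.32. With single libraries left out, 2 to 5 of these genes rose and 0 or 1 fell, at medians of 0.06 to 0.68. Lypd3, a surface protein of suprabasal cells, rose from 90.4, 80.1 and 87.1 CPM to 142, 126 and 133 CPM (0.64 ± 0.14, adjusted p = 0.01). Lypd3 lost its call without HCM library 1 (0.59) or LCM library 2 (0.59).

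Serpins of the B family, inhibitors of proteases inside cells, were collected in a list chosen after seeing the data. Of 17 tested, 8 rose and none fell, at a median log2 fold change of 0.72. The count was 6 without both libraries that stood apart, 5 without HCM library 1 or LCM library 1, 4 without HCM library 2 and 3 without LCM library 3. Serpinb2, at chr1:107428593-107463208, read 102, 137 and 63.4 CPM in HCM and 15.2, 25.8 and 24.7 CPM in LCM. All HCM libraries lay above all LCM libraries (log2 fold change 2.20 ± 0.31, adjusted p = 7.7e-05). Serpinb3b rose from 1.2, 0.954 and 0.187 CPM to 8.20, 7.36 and 3.99 CPM (3.13 ± 0.40, adjusted p = 2.2e-05), the highest log2 fold change among the protein-coding genes named by rule. Serpinb3a rose from 3.45, 0.653 and 1.08 CPM to 9.04, 9.04 and 7.83 CPM (2.39 ± 0.43). Serpinb3a and Serpinb3b are close copies, so their separate values are uncertain. Serpinb11, Serpinb9, Serpinb1a, Serpinb1b and Serpinb5 rose by 1.97, 1.5, 0.79, 0.72 and 0.57. Calls were lost without single libraries for Serpinb11 (any but HCM library 3, 1.70 to 2.17), Serpinb9 (any but HCM library 3 and LCM library 2, 1.23 to 1.39), Serpinb1a (HCM library 1 or LCM library 3, 0.67 and 0.62) and Serpinb1b (HCM library 2 or LCM library 3, 0.59 and 0.63). The call of Serpinb5, maspin, was lost without HCM library 2 (0.43), LCM library 1 (0.51) or LCM library 3 (0.58).

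Cytokines were called in both directions. Il33, an alarmin of barrier tissues at chr19:29902483-29938933, read 21.1, 25.0 and 15.4 CPM in HCM and 3.31, 3.61 and 2.34 CPM in LCM. The media lay far apart (log2 fold change 2.73 ± 0.25, adjusted p = 8.6e-08). Il18 rose from 5.43, 3.16 and 0.890 CPM to 8.95, 6.90 and 12.3 CPM (1.6 ± 0.37), and its call was lost without HCM library 3 (1.36), LCM library 2 (1.62) or LCM library 3 (1.13). Csf3, which codes for G-CSF, the growth factor of neutrophils, lies at chr11:98592089-98594458 and fell from 17.2, 13.8 and 15.4 CPM to 2.70, 3.43 and 4.80 CPM (-2.1 ± 0.26, adjusted p = 1.3e-05). The neutrophil chemokine Cxcl1 fell from 84.0, 80.6 and 92.9 CPM to 30.3, 28.4 and 45.2 CPM (-1.31 ± 0.25, adjusted p = 0.0025). Il24 fell from 14.1, 16.5 and 19.9 CPM to 6.52, 6.61 and 8.20 CPM (-1.25 ± 0.23). None of these 5 genes overlapped between the media. The other 27 of the 32 tested cytokine genes were not called, and the median was 0.05.

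The other rising genes with the highest changes were Rhov, which codes for a small GTPase (7.83, 3.01 and 2.58 CPM in LCM, 25.7, 17.2 and 27.2 CPM in HCM; log2 fold change 2.41 ± 0.38), Slc1a1, a glutamate transporter (2.13 ± 0.39), the uncharacterised Gm94 (2.1 ± 0.23), Klra8 (2.02 ± 0.29) and Glul, glutamine synthetase (0.846, 0.904 and 0.890 CPM in LCM, 4.52, 2.47 and 3.77 CPM in HCM; 2.01 ± 0.44). Klra8 belongs to a family of close copies, so its counts are uncertain. Glul lost its call without HCM library 1 (1.79). None of these 5 overlapped between media.

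Several genes of EGF receptor and ERK signalling fell. Etv5, an ETS factor that is switched on by ERK, lies at chr16:22200052-22259662. Etv5 read 2.05, 2.09 and 2.66 CPM in HCM and 12.5, 13.3 and 12.4 CPM in LCM. The libraries of each medium lay close together and far from those of the other, and the log2 fold change was -2.50 ± 0.25 (adjusted p = 2.1e-07). Its relative Etv4 fell from 87.8, 51.1 and 52.0 CPM to 14.8, 16.9 and 27.6 CPM (-1.69 ± 0.28, adjusted p = 0.0005). The ERK phosphatase gene Dusp6 fell from 26.3, 40.7 and 36.3 CPM to 10.4, 16 and 11.2 CPM (-1.46 ± 0.21, adjusted p = 7.8e-05), and the feedback inhibitor Spry2 from 5.08, 7.38 and 4.26 CPM to 1.86, 3.43 and 2.22 CPM (-1.15 ± 0.25). For none of these 4 did the media overlap, and Spry2 lost its call without HCM library 1 (-0.97) or LCM library 2 (-0.89). In a list of 21 ERK outputs and feedback genes, chosen after seeing the data, these 4 fell and none rose, with a median of -0.28. The count was also 4 without both libraries that stood apart. With single libraries left out the count was 3 to 5 and the median -0.48 to -0.24. Areg, amphiregulin, a ligand of the EGF receptor at chr5:91287451-91296291, read 3.36, 3.22 and 2.88 CPM in HCM and 13.5, 20.7 and 16.9 CPM in LCM. All LCM libraries lay far above all HCM libraries (-2.43 ± 0.29, adjusted p = 6.1e-06). Of 13 EGF receptors and ligands, Areg and Nrg1 fell and Erbb3 rose, the latter 2 by -0.58 ± 0.14 and 0.61 ± 0.17. Nrg1 lost its call without HCM library 1 (-0.57) or LCM library 3 (-0.41). Erbb3 lost its call without any 1 library but HCM library 3 (0.51 to 0.69).

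The remaining genes with the lowest log2 fold changes were Arid5a, which codes for an RNA-binding protein that stabilises cytokine transcripts (23.3, 22.8 and 20.3 CPM in LCM, 7.22, 6.82 and 5.54 CPM in HCM; -1.76 ± 0.27, adjusted p = 0.00024), Trib2 (-2.26 ± 0.52), Pik3ip1 (-1.82 ± 0.38), Ttyh1 (-1.73 ± 0.37), Eya2 (-1.64 ± 0.34), Asap2 (-1.59 ± 0.32) and Rai14, an actin-binding ankyrin protein (43.3, 60.7 and 59.6 CPM in LCM, 17.2, 21.2 and 17.1 CPM in HCM; -1.56 ± 0.25). None of them overlapped between the media. Trib2 lost its call without HCM library 2 (-2.29) or HCM library 3 (-2.16), and Pik3ip1 without HCM library 2 (-1.5).

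Arhgef2, which codes for an exchange factor that binds microtubules, lies at chr3:88513273-88556837. Arhgef2 read 22.1, 19.1 and 14.8 CPM in HCM and 46.1, 54.5 and 41.6 CPM in LCM. The media were well separated, with a log2 fold change of -1.34 ± 0.14 (adjusted p = 8.5e-07). Of 26 integrin and focal adhesion genes, 5 fell and 1 rose, with a median of -0.21. The count that fell was 3 without both libraries that stood apart and 2 or 3 without any single library. Those that fell were Itga3, an integrin subunit that binds laminin (189, 218 and 267 CPM in LCM, 124, 124 and 136 CPM in HCM; -0.81 ± 0.13, adjusted p = 0.0005), and the genes of the adhesion proteins paxillin (Pxn, -0.76), Src (-0.67), talin 1 (Tln1, -0.59) and zyxin (Zyx, -0.58). The gene that rose, Fermt2, lay between 0 and 0.460 CPM in all 6 libraries and lost its call without HCM library 2 or 3 or LCM library 2 or 3. Among 26 actin, tropomyosin and SRF target genes, Flna fell (-0.57 ± 0.13) and Fhl1 rose (1.25 ± 0.31). Zyx lost its call whichever library was left out (-0.62 to -0.54), Src without any 1 library but HCM library 3 (-0.70 to -0.62), Tln1 without HCM library 3 (-0.51), LCM library 2 (-0.53) or LCM library 3 (-0.53), Flna without HCM library 1 (-0.55), HCM library 2 (-0.58) or LCM library 3 (-0.50), and Fhl1 without any 1 library but HCM library 1 (1.09 to 1.26).

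**Figure D3:**
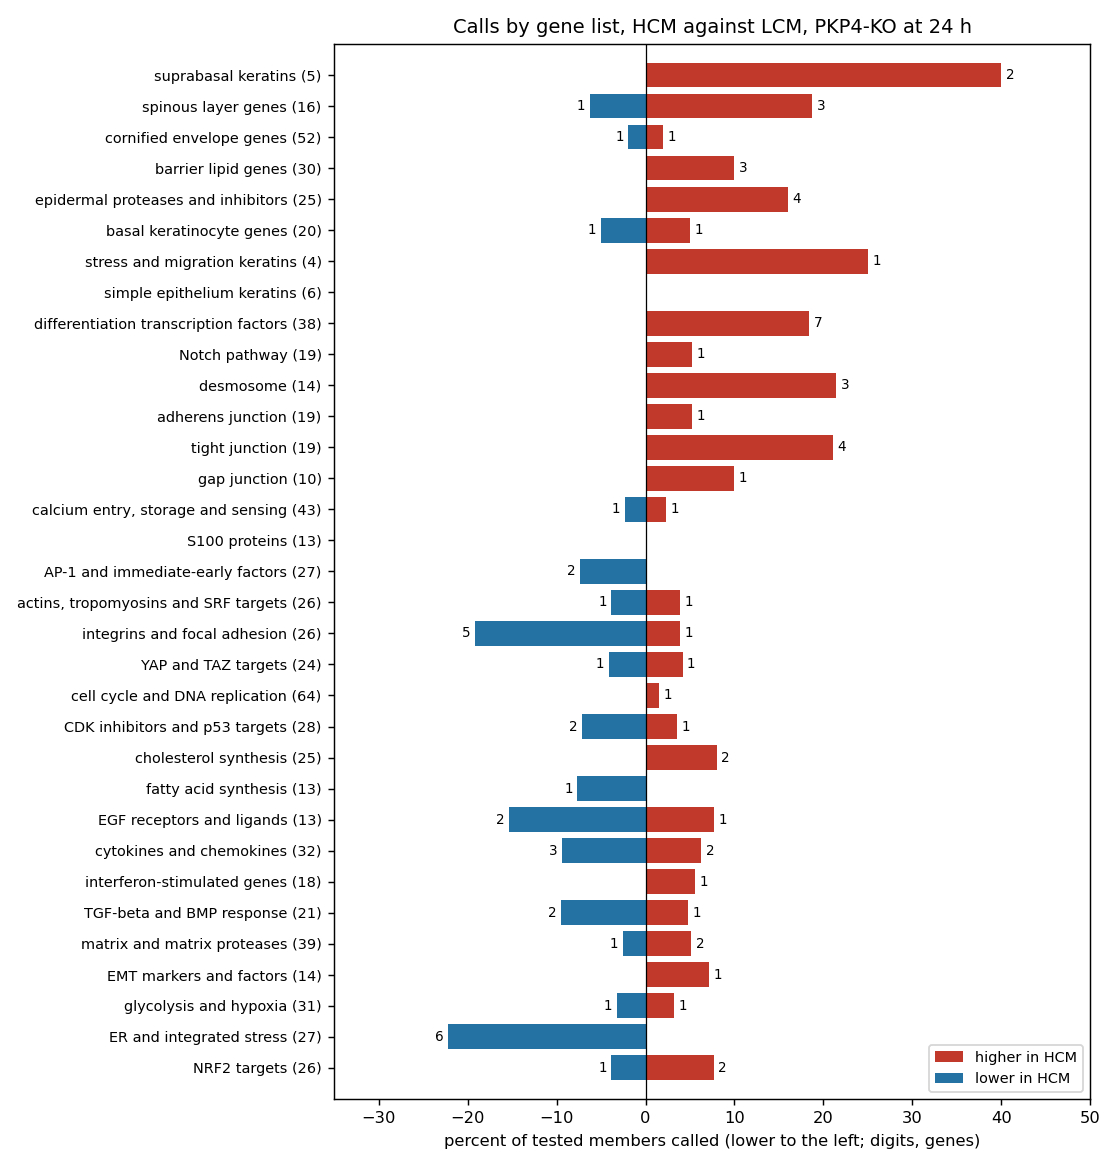
Percent of the tested members of 33 gene lists that were called higher (to the right) or lower (to the left) in HCM in PKP4-KO keratinocytes at 24 h (x axis), with the number tested after each list's name and the number called beside each bar. Desmosome, tight junction and transcription factor genes were called higher only, ER and integrated stress genes lower only (6 of 27).

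Some genes of the integrated stress response fell. This response is run by the factor ATF4, which raises amino acid synthesis, amino acid import and the charging of tRNAs when amino acids are short or protein folding is disturbed. Of 27 tested genes of the ER and integrated stress list, 6 fell and none rose, while the list's median was 0.04. The count fell to 2, Trib3 and Chac1, when both libraries that stood apart were left out, to 3 without HCM library 1 or LCM library 1 alone, and to 4 or 5 without any other single library. The 6 were Trib3, Chac1, Ddit3, Atf4, Asns and Psat1, all linked to ATF4, and not the chaperones of the list. Trib3, a pseudokinase gene at chr2:152179337-152191958, read 56.7, 57.6 and 55.9 CPM in HCM and 205, 220 and 174 CPM in LCM. The HCM libraries lay close together and all LCM libraries far above them (log2 fold change -1.82 ± 0.19, adjusted p = 5.5e-07). Chac1, which codes for an enzyme that breaks down glutathione, read 13.4, 14.6 and 14.5 CPM in HCM and 28.4, 30.4 and 32.1 CPM in LCM (-1.1 ± 0.19, adjusted p = 0.00084). Atf4 itself read 377, 366 and 458 CPM in HCM and 801, 674 and 614 CPM in LCM (-0.80 ± 0.18, adjusted p = 0.0094). Ddit3, the factor CHOP, read 16.3, 11.1 and 14.8 CPM in HCM and 31.1, 24.3 and 24.1 CPM in LCM (-0.91 ± 0.25, adjusted p = 0.046). None of the 4 overlapped between media. Atf4 lost its call without HCM library 1 (-0.76), HCM library 2 (-0.74) or LCM library 1 (-0.69), and Ddit3 whichever library was left out (-1.04 to -0.77).

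Lists of genes in amino acid supply were added after these values were seen, so their counts describe and do not test. Of 24 tested genes of amino acid synthesis and transport linked to ATF4, 12 fell and none rose, 23 had a negative log2 fold change, and the median was -0.49. Pck2, mitochondrial PEP carboxykinase, fell from 110, 126 and 94.0 CPM to 44.6, 42 and 28.7 CPM (-1.51 ± 0.18, adjusted p = 7.2e-06). Asns, asparagine synthetase, fell from 634, 648 and 525 CPM to 386, 408 and 316 CPM (-0.70 ± 0.14, adjusted p = 0.003). The other 10 were Stc2 (-1.34), the transaminase Gpt2 (-1.22), the folate enzyme Aldh1l2 (-1.2), Pycr1 (-1.04) and Aldh18a1 (-0.85) of proline synthesis, Mthfd2 (-0.69) and Shmt2 (-0.65) of the mitochondrial folate cycle, Psph (-0.50) and Psat1 (-0.47) of serine synthesis, and Got1 (-0.41). Of 20 cytosolic aminoacyl-tRNA synthetases, the enzymes that load tRNAs with amino acids, 8 fell and none rose, with a median of -0.42. This median was -0.53 to -0.26 with single libraries left out. Aars, for alanine, fell from 291, 319 and 293 CPM to 202, 186 and 138 CPM (-0.78 ± 0.14, adjusted p = 0.0011), and Sars, for serine, from 452, 394 and 310 CPM to 227, 210 and 195 CPM (-0.87 ± 0.15). Pck2, Asns, Stc2, Gpt2, Aldh1l2, Pycr1, Aldh18a1, Mthfd2, Aars, Sars and Cars kept their call whichever of the 6 libraries was left out. Psat1 (-0.48 to -0.39), Psph (-0.50 to -0.40), Shmt2 (-0.64 to -0.56), Farsa (-0.40 to -0.34), Gars (-0.54 to -0.37), Nars (-0.74 to -0.52), Tars (-0.59 to -0.45) and Yars (-0.85 to -0.54) lost it in 3 to 5 of these 6 fits and Got1 in all 6 (-0.47 to -0.35). Without both libraries that stood apart, 6 and 3 genes of these lists were called lower and none higher, and with 1 library left out 8 to 11 and 3 to 6. The second count was 4 without HCM library 2 or LCM library 3 and 3 without HCM library 3 or LCM library 2.

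**Figure D4:**
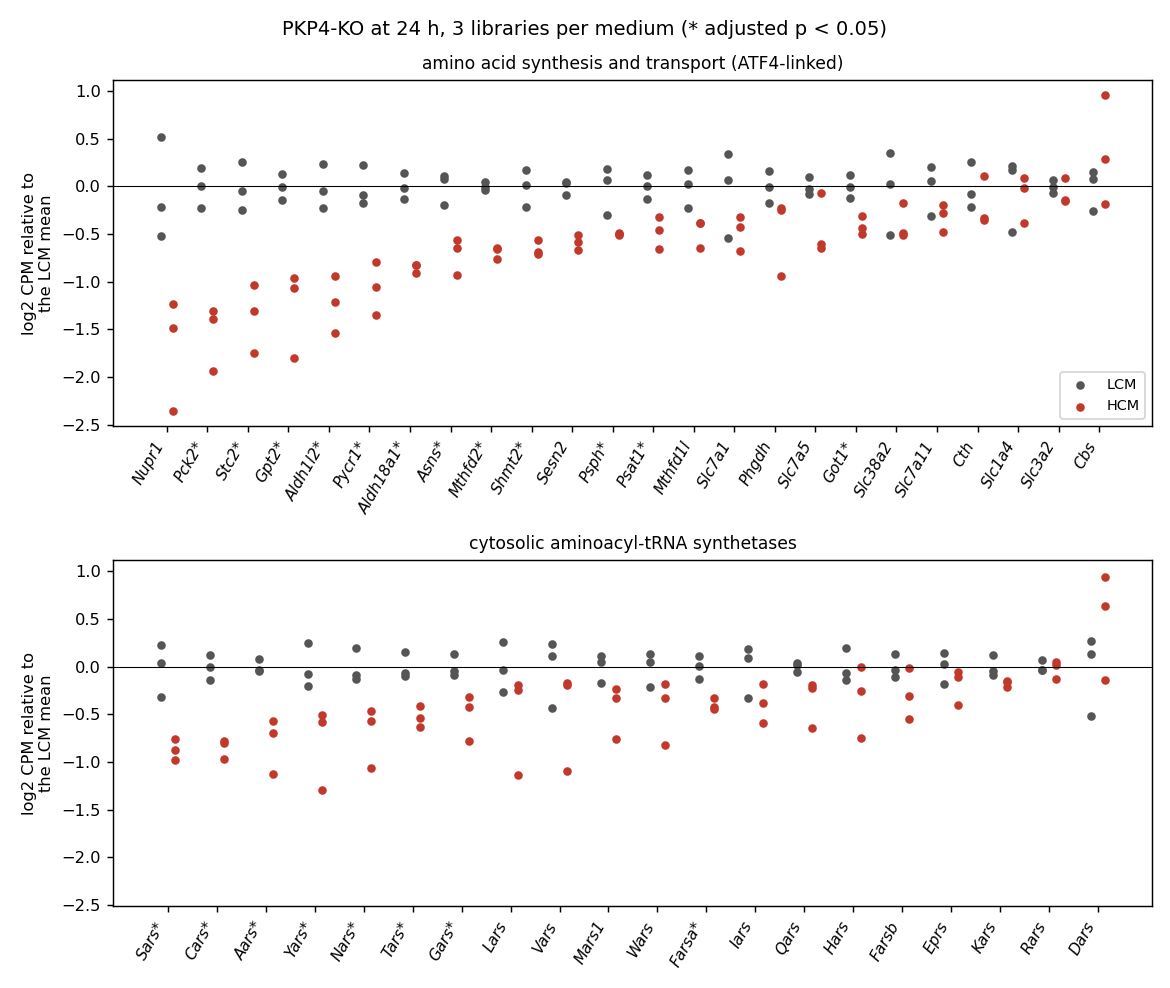
Log2 CPM of each PKP4-KO library at 24 h relative to the mean of the LCM libraries (y axis) for the genes of amino acid synthesis and transport and for the cytosolic aminoacyl-tRNA synthetases (x axis); an asterisk marks genes called lower. Of 24 and 20 genes tested, 12 and 8 carry an asterisk, and their HCM points lie below 0.

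The stretch of 250 bases before the start of the canonical transcript (GENCODE vM39, GRCm39) was searched on both strands for short motifs, in the 208 higher and 208 lower protein-coding genes and in 12552 tested protein-coding genes. Each motif was counted on its own, so that 1 stretch may count for more than 1 motif. The letters TGATGNAA of the CARE motif, which ATF4 binds with C/EBP partners, were present in 4.81% of the lower, 1.92% of the higher and 2.16% of all genes. This motif and the ETS motif were chosen after seeing the data. Of the lower genes with a CARE match, 4 of the stress and amino acid genes described above are printed, with the match in capitals on either strand. The matches begin 159, 199 and 103 bases before the start in Chac1, Ddit3 and Pck2, and 146 and 25 bases before it in Aars.
Chac1, chr2:119181439-119181688, forward strand: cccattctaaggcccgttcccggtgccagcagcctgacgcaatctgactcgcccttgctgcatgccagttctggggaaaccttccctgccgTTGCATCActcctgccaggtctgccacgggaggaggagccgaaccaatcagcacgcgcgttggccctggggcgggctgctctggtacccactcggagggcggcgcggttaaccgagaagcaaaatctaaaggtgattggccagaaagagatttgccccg
Ddit3, chr10:127126310-127126559, forward strand: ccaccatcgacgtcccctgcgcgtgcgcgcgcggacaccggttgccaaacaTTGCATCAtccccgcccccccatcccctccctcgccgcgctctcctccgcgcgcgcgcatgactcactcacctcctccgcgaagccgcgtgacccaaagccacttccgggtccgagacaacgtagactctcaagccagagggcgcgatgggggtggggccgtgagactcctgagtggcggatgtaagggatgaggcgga
Aars, chr8:111760258-111760507, forward strand: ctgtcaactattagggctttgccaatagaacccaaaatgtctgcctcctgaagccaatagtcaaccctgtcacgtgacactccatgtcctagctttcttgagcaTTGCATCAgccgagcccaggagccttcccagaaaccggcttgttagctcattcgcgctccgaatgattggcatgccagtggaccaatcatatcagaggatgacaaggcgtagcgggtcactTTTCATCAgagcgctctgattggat
Pck2, chr14:55777473-55777722, forward strand: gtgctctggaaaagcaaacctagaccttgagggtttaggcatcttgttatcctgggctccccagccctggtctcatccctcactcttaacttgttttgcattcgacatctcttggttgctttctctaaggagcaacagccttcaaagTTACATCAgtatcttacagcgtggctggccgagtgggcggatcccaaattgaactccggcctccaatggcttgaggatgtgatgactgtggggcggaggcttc

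The AP-1 motif TGANTCA, bound by FOS and JUN factors, was present in 10.6% of the higher, 7.21% of the lower and 4.96% of all promoters. A gene of each direction is printed, Serpinb2 as one that rose and Ivl as one that fell, with the AP-1 match in capitals 94 and 116 bases before the start.
Serpinb2, chr1:107438903-107439152, forward strand: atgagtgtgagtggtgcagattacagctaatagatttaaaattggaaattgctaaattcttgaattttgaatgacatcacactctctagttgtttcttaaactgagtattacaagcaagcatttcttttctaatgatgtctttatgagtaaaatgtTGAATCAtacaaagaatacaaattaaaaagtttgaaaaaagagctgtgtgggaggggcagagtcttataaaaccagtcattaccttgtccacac
Ivl, chr3:92481043-92481292, reverse strand: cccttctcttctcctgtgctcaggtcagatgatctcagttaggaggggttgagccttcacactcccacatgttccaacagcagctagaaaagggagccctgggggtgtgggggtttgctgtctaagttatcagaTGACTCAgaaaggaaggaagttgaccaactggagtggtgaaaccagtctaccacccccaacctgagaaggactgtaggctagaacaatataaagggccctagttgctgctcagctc
The letters TTTGAA (CHR) were present in 17.8% of the higher, 8.17% of the lower and 12.5% of all promoters, GGAATG (TEAD) in 16.3%, 10.1% and 11.6%, and CCAAT in 44.2%, 35.6% and 36.3%. The grainyhead letters AACCNGTT were present in 1.44%, 0.962% and 1.67%, the letters of the GATA3 motif, given by AGATAA, in 7.69%, 4.33% and 6.96%, and the ETS letters CCGGAAGT in 1.92%, 2.4% and 3.94%. A match is a description of the letters and not a binding site, and these shares were not tested.

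Of 64 cell cycle and DNA replication genes, 1 was called, near the share over all tested genes (1.44% higher and 1.4% lower). It was E2f2, which rose from 11.2, 10.4 and 8.20 CPM to 22, 20.0 and 20.9 CPM (1.08 ± 0.26, adjusted p = 0.017). The list's median was -0.02, and the proliferation marker Mki67 overlapped between media (0.24 ± 0.39). E2f2 lost its call without HCM library 1 (1.04), HCM library 2 (1.11), LCM library 2 (1.11) or LCM library 3 (0.95). Of 25 cholesterol synthesis genes, Idi1 (1.07 ± 0.28) and Msmo1 (0.63 ± 0.17) rose, with a median of 0.17 (0.03 to 0.27 with single libraries left out). Both failed the threshold in all but 1 of the fits that left out 1 library (0.89 to 1.18 and 0.52 to 0.70), the exception being that without HCM library 3. In the lists of this paragraph only a few genes were called in either direction. Beside 1.44% higher and 1.4% lower over all tested genes, such counts are not read as changes of these lists. The same goes for the basal, Notch, adherens junction and actin lists above. Of 43 genes of calcium entry, storage and sensing, the plasma membrane pump Atp2b4 rose (1.01 ± 0.21) and the channel gene Orai2 fell (-0.47 ± 0.13). The calcium-sensing receptor Casr had no read in the 6 libraries. None of 13 S100 genes was called by edgeR. Among 27 AP-1 and immediate-early genes, Dusp6 and Maff fell. Of 21 TGF-beta and BMP response genes, Id2 rose and Tgfb1 (-0.70 ± 0.15) and Pmepa1 (-0.97 ± 0.18) fell. Of 28 p53 targets and CDK inhibitors, Perp rose and Gadd45a (-0.87 ± 0.20) and Plk3 (-0.81 ± 0.18) fell. Of 31 glycolysis and hypoxia genes, Egln3 rose and Ndrg1 fell, and of 26 NRF2 targets, Gsta3 and Prdx1 rose and Tkt fell. Of 39 genes of the matrix and its proteases, Adam8 (0.84 ± 0.15) and Adamts1 (0.96 ± 0.24) rose and the urokinase receptor gene Plaur (-0.91 ± 0.21) fell. Of 24 YAP and TAZ targets, Gadd45b rose (0.70 ± 0.17) and Dock5 fell (-1.1 ± 0.20). The desaturase gene Fads1 (-0.58 ± 0.13) was the 1 call among 13 fatty acid synthesis genes, and Ddx58, the RNA sensor RIG-I (0.97 ± 0.22), the 1 call among 18 interferon-stimulated genes. Without single libraries, calls were lost for Orai2 (-0.51 to -0.34 without any but HCM library 1), Maff (-0.92 to -0.75 without any but LCM library 1), Prdx1 (0.46 to 0.62 without any but LCM library 1), Egln3 (0.53 to 0.80 without any but HCM library 3 and LCM library 1), Gadd45a (-0.78 without LCM library 2 and -0.80 without LCM library 3), Gsta3 (0.57 without HCM library 2 and 0.58 without LCM library 2), Tkt (-0.50 without HCM library 2 or HCM library 3 and -0.45 without LCM library 1), Ndrg1 (-0.62 without LCM library 1), Adamts1 (0.71 to 0.95 in 4 of the 6 fits), Plaur (-0.86 to -0.76 in 3), Gadd45b (0.63 to 0.72 in 4), Fads1 (-0.52 to -0.49 in 2) and Ddx58 (0.81 to 0.87 in 2).

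The response was then set beside that of WT at 24 h. WT had 1163 genes higher and 980 lower in HCM. Of the 217 genes higher in PKP4-KO, 141 were also called higher in WT, which is 65.0% of the PKP4-KO calls and 12.1% of the WT calls. Of the 211 lower genes, 72 were called lower in WT (34.1% and 7.35%) and 14 were called higher there. The difference of the responses was tested as an interaction. PKP4-KO responded more positively than WT for 186 genes (1.23% of those tested) and more negatively for 421 (2.79%). With library sizes without TMM factors, this split was 208 and 158, and the median difference over all genes moved to 0.28. Of the 421, 345 were called higher in WT, and 345 were not called in PKP4-KO. In the opposite direction, 159 of the 186 were called lower in WT and 167 were not called in PKP4-KO.

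Genes of the upper epidermis were among those that responded more negatively in PKP4-KO than in WT. Cdsn, corneodesmosin, a glue of the cornified layer at chr17:35863025-35868077, read 18.6, 14.2 and 16.5 CPM in HCM and 17.4, 17.1 and 20.0 CPM in LCM in PKP4-KO cells. These libraries overlapped (log2 fold change -0.14 ± 0.20), while WT libraries rose from 48.1 to 56.7 CPM in LCM to 606 to 698 CPM in HCM. The difference of the responses was -3.72 ± 0.29 (adjusted p = 4.2e-09). Krt4, a keratin of stratified mucosa at chr15:101826970-101833170, read 0.960 to 1.97 CPM in HCM and 1.1 to 2.61 CPM in LCM in PKP4-KO, and 5.60 to 8.56 CPM against 0.317 to 0.573 CPM in WT (difference -4.35, adjusted p = 2.3e-06). Krt80, a keratin of differentiating cells at chr15:101245325-101268043, read 28.2, 29.0 and 32.1 CPM against 23.3, 27.6 and 26.4 CPM in PKP4-KO and rose from 63.9 to 76.3 CPM to 300 to 370 CPM in WT (difference -2.07, adjusted p = 3.9e-06). Lypd5, a gene of the Ly6 family at chr7:24043489-24054534, read 2.24 to 3.25 CPM in HCM and 4.02 to 5.15 CPM in LCM in PKP4-KO, and 25.0 to 40.0 CPM against 5.47 to 5.76 CPM in WT (difference -3.31, adjusted p = 1.6e-07). Ivl went in opposite directions, falling in PKP4-KO and rising in WT from 24.6 to 37.8 CPM to 56.0 to 61.5 CPM (difference -2.31, adjusted p = 0.00043). Tgm1 rose in WT from 29.3 to 35.0 CPM to 167 to 184 CPM (difference -1.93, adjusted p = 0.00011), and Sprr1a, a small proline-rich envelope protein, from 383 to 646 CPM to 1185 to 2079 CPM (difference -2.04, adjusted p = 0.0069). By list, the difference was called lower for 10 of 52 cornified envelope, 11 of 30 barrier lipid, 6 of 25 protease and 5 of 16 spinous layer genes, and higher for none of them. Without TMM factors these counts were 8, 10, 4 and 6, with 1 cornified envelope gene higher. Without both libraries that stood apart they were 9, 12, 5 and 3, again with 1 cornified envelope gene higher.

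For other rising genes, chosen after their values were seen, no difference was called. Dsg1a responded by 2.95 in PKP4-KO and 2.38 in WT on the log2 scale (difference 0.57, adjusted p = 0.74), Il33 by 2.73 and 2.89 (-0.15, adjusted p = 0.91), Zfp750 by 1.96 and 1.99 (-0.04, adjusted p = 0.98), Cldn1 by 1.33 and 1.42 (-0.09, adjusted p = 0.95) and Serpinb2 by 2.20 and 2.63 (-0.43, adjusted p = 0.75). For Krt1 the responses were 2.21 and 3.22 (-1.01, adjusted p = 0.60). A called difference was found for Lypd3 (-1.17, adjusted p = 0.0006) and Ovol1 (-1.03, adjusted p = 0.0053), which rose in both and less in PKP4-KO, the latter without a call when TMM factors were left out (-0.74). By list, the difference was called lower for 2 of 5 suprabasal keratins and for 5 of 38 transcription factors, with 3 of the factors higher. Without TMM factors these counts of factors were 1 lower and 3 higher. The levels of Krt1 and Zfp750 differed between the genotypes in LCM. Krt1 stood at 13.8 to 38.6 CPM in LCM in PKP4-KO against 0.642 to 0.846 CPM in WT, whereas Zfp750 stood at 6.42 to 7.68 CPM against 32.7 to 39.6 CPM. None of the 14 desmosome genes had a called difference (edgeR, as throughout), although a difference that misses the threshold does not show that the responses were alike.

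Several of the falling genes fell in PKP4-KO and not in WT, while others fell in both. Areg went from 3.01 to 4.95 CPM in LCM to 8.98 to 12 CPM in HCM in WT, the reverse of PKP4-KO (difference -3.89, adjusted p = 1.2e-06). Trib3 stayed at 16 to 27.3 CPM in LCM and 19.4 to 27.2 CPM in HCM in WT (difference -1.96, adjusted p = 2.6e-05), and the LCM level in PKP4-KO, 174 to 220 CPM, lay far above both. Atf4 read 199 to 263 CPM in LCM and 235 to 368 CPM in HCM in WT (difference -1.11, adjusted p = 0.0086), and Chac1 17.6 to 20.7 CPM and 22.6 to 27.3 CPM (difference -1.45, adjusted p = 0.0011). Arid5a and Csf3 had differences of -2.12 (adjusted p = 0.0011) and -1.96 (adjusted p = 0.0016). Arhgef2 fell in both, from 28.2 to 30.2 CPM to 19.9 to 21.7 CPM in WT, and the fall in PKP4-KO was larger (difference -0.87, adjusted p = 0.009). Without TMM factors this difference was -0.57 and missed the threshold. It also missed it without the filter on low counts (-0.87) and without both libraries that stood apart (-0.76). Etv5, Etv4 and Asap2 also fell in WT, by -1.77, -0.89 and -1.51 (adjusted p of 2.9e-05, 0.03 and 0.0011). Their differences were not called (adjusted p of 0.38, 0.35 and 0.98). Rai14, Pik3ip1 and Eya2 were not called in WT. Of the 21 ERK outputs and feedback genes, 6 fell and 3 rose in WT, and the difference was called lower for 1. Plk3, a polo-like kinase gene, fell in PKP4-KO from 8.11, 9.09 and 8.52 CPM to 5.17, 4.02 and 5.54 CPM and rose in WT from 6.61 to 8.75 CPM to 19.7 to 20.5 CPM (difference -2.18, adjusted p = 5.8e-06). The call of its fall was lost without HCM library 2 (-0.69) or LCM library 2 (-0.77). Of the 6 stress genes that fell, all but Asns (adjusted p = 0.051) had a called difference. That of Ddit3 (-1.37, adjusted p = 0.025) was lost without TMM factors (-1.06), without both libraries that stood apart (-1.28) and in 5 of the 12 fits that left out 1 library (-1.28 to -1.19). Cell cycle genes differed the other way. None of 64 rose and 35 fell in WT, with a median of -0.54, and the difference was called higher in PKP4-KO for 12 and lower for none. The count was 14 without TMM factors and 4 without both libraries that stood apart.

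**Figure D5:**
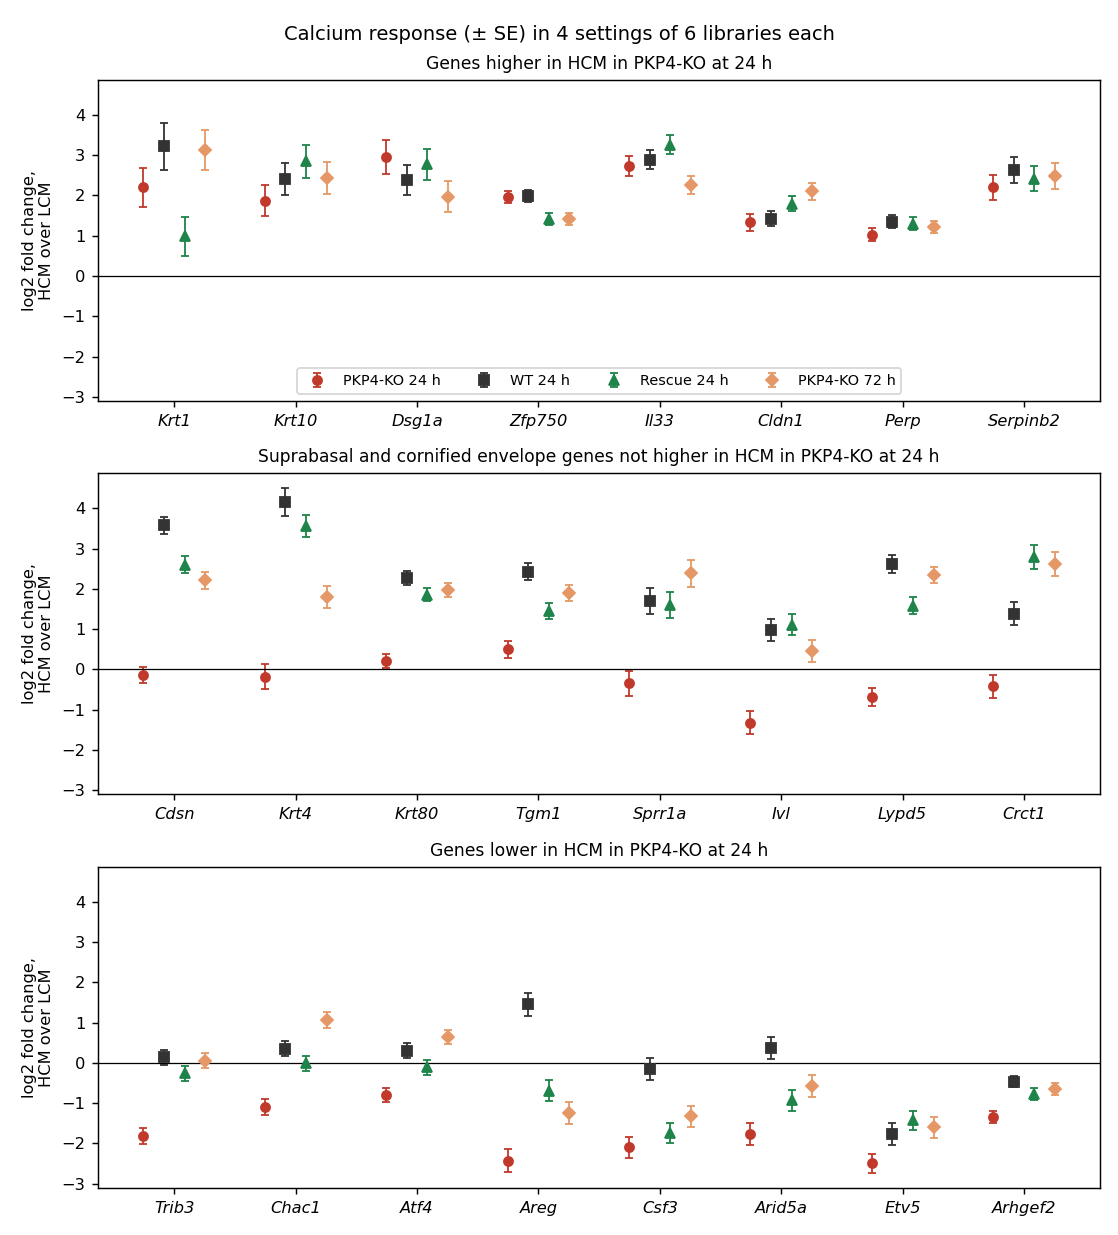
Log2 fold change of HCM over LCM (y axes) with its SE for 24 genes in PKP4-KO at 24 h, WT at 24 h, Rescue at 24 h and PKP4-KO at 72 h (3 libraries in each medium and group). The 8 genes of the first panel, a selection of the rising genes, lie above 0 in all 4 responses. Other rising genes do not, such as Grhl3 in PKP4-KO at 72 h (-0.18) and Id2 in WT at 24 h (-0.12). Genes of the second panel lie higher in the other 3 responses than in PKP4-KO at 24 h, and those of the third lie below 0 in PKP4-KO at 24 h.

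In Rescue cells at 24 h, 907 genes were higher and 901 lower in HCM. Of the 217 higher genes of PKP4-KO, 145 were called higher in Rescue (66.8% and 16% of the calls of each), and of the 211 lower genes, 111 were called lower (52.6% and 12.3%) and 4 higher. The response of PKP4-KO was above that of Rescue for 63 genes (0.417%) and below it for 150 (0.992%). Without TMM factors these counts were 15 and 93. Of the 150, 136 were called higher in Rescue and 130 were not called in PKP4-KO. Cdsn rose in Rescue from 67.7 to 89.7 CPM to 346 to 591 CPM (difference -2.74, adjusted p = 3.3e-06), and Krt4 from 7.46 to 10.9 CPM to 67.1 to 139 CPM (difference -3.74, adjusted p = 5.3e-06). Crct1, a gene of the epidermal differentiation complex, read 25.1 to 32.4 CPM in HCM and 25.4 to 47.7 CPM in LCM in PKP4-KO, and 311 to 506 CPM against 39.4 to 74.3 CPM in Rescue (difference -3.22, adjusted p = 6.5e-05). Ivl rose in Rescue from 37.7 to 52.3 CPM to 95.8 to 108 CPM (difference -2.44, adjusted p = 0.0008). The difference was called lower for 9 of 52 cornified envelope and 7 of 30 barrier lipid genes and higher for none, and without TMM factors for 11 and 7. Trib3 read 154 to 196 CPM in LCM and 107 to 177 CPM in HCM in Rescue, so that its LCM level overlapped that of PKP4-KO (difference -1.55, adjusted p = 0.0011). Atf4 did not differ by this test (-0.68, adjusted p = 0.25). The differences of Etv5, Csf3 and Arhgef2 were -1.07, -0.35 and -0.57 and were not called (adjusted p of 0.12, 0.94 and 0.20). The count of 213 differences was 131 without HCM library 1 of Rescue, 103 without HCM library 2 of Rescue, 121 without LCM library 3 of Rescue, 139 without HCM library 2 of PKP4-KO and 137 without HCM library 3 of PKP4-KO.

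At 72 h, PKP4-KO cells had 1947 genes higher and 2977 lower in HCM. Of the 217 genes higher at 24 h, 153 were called higher at 72 h (70.5% of the first and 7.86% of the second) and 3 lower. Of the 211 lower genes, 134 were called lower (63.5% and 4.50%) and 17 higher. The response at 72 h was above that at 24 h for 672 genes (4.45%) and below it for 995 (6.58%). These counts depend on the scaling, since they were 260 and 5127 without TMM factors, with the median difference moving from -0.08 to -0.77. Ribosomal protein genes moved with the medium at 72 h, at a mean log2 level of 12.1 to 12.4 in HCM and 10.3 to 11.3 in LCM, against 9.10 to 10.7 and 9.30 to 10.9 at 24 h, and their part in the difference was not tested. With both libraries that stood apart left out, 1067 of 1667 differences were called. The count was 976 without LCM library 3 of 72 h, 999 without HCM library 2 of 24 h and 932 without LCM library 1 of 24 h. Cdsn, flat at 24 h, rose at 72 h from 73.8 to 118 CPM to 380 to 579 CPM (difference 2.36, adjusted p = 7.4e-06), and Krt80 from 143 to 174 CPM to 485 to 792 CPM (difference 1.77, adjusted p = 2.3e-05). Lypd5 rose from 30.8 to 46.3 CPM to 168 to 222 CPM (difference 3.03, adjusted p = 1e-06). Slpi, a secreted protease inhibitor, read 42.8 to 70.9 CPM in HCM and 50.8 to 87.1 CPM in LCM at 24 h, and 1706 to 2437 CPM against 86.4 to 187 CPM at 72 h (difference 4.12, adjusted p = 4.5e-06). Dynap read 9.37 to 17.6 CPM against 8.84 to 10.8 CPM at 24 h and 35.7 to 55.1 CPM against 3.17 to 6.12 CPM at 72 h (difference 2.91, adjusted p = 7.4e-06). Krt1 stood at 386 to 476 CPM in LCM and 3642 to 3841 CPM in HCM at 72 h, with a response that did not differ from that at 24 h by the test (0.91, adjusted p = 0.37). By list, the response at 72 h was called above that at 24 h for 22 of 52 cornified envelope, 17 of 30 barrier lipid and 13 of 25 protease genes, and below it for 24 of 64 cell cycle and 9 of 20 basal genes, with no call in the other direction in these 5 lists. Without TMM factors the first 3 counts were 20, 9 and 9, with 1, 2 and 2 genes below. Grhl3, which rose at 24 h, read 47.8 to 59.5 CPM in HCM and 60.2 to 60.7 CPM in LCM at 72 h (difference -1.66, adjusted p = 0.00028). Trib3 and Chac1, which fell at 24 h, read 306 to 400 CPM against 307 to 369 CPM and 65.5 to 91.5 CPM against 29.7 to 46.8 CPM at 72 h (differences 1.87 and 2.16, adjusted p of 3.8e-05 and 8.2e-06). Atf4 read 1077 to 1261 CPM in HCM and 671 to 828 CPM in LCM at 72 h (difference 1.44, adjusted p = 0.00041).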

How the data were processed

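RNA was measured by the authors as poly(A)-selected, strand-specific read pairs, aligned with HISAT2 2.1.0 to mm39 plus the GFP-PKP4 sequence, with secondary alignments removed by SAMtools 1.10. The deposited values are whole-number counts per gene from featureCounts 2.0.0 on an Ensembl GRCm39 annotation, without normalization; the strand setting of the counting is not given in the sources used here. Reads that fit close gene copies are therefore uncertain.

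Groups came from the labels. All 36 libraries were fitted in R 4.3.3 with edgeR 4.0.16: filterByExpr, TMM factors, a mean for each of 12 groups (24 residual degrees of freedom), the quasi-likelihood test (glmQLFTest), and Benjamini-Hochberg adjustment over 15114 tested genes with a threshold of 0.05. Of 55358 genes in the counts, 33667 had no read in the 6 libraries described. Contrasts were HCM against LCM and the difference of this response from those of WT, Rescue and 72 h. The SE was derived as the absolute log2 value over the square root of the F statistic of the test, so it is approximate. The labels define the libraries, but these members and the lists were chosen for description with earlier results of these data known, and 4 lists, 2 motifs and 2 alternatives after seeing the data.

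The text names Pkp4, the 12 highest and 12 lowest called protein-coding genes with a mean of 1 CPM or more and no overlap, up to 4 rising and 4 falling called genes of each of 34 lists with their defining genes, and the 8 protein-coding genes with the lowest adjusted p for each difference. Other genes are members of the lists, chosen after their values were seen. The result of 1 list is not reported here. Depth limits low genes: 3 counts, the floor, cover counting error only. Between libraries of a group, the chi-square per gene was 19.22 to 182.2, well above sampling noise. Alternatives were DESeq2 1.42.0, no TMM factors, no filter, at least 10 counts, only the groups compared, a replicate block, libraries left out singly or both that stood apart, and the ribosomal protein score as a covariate. The ribosomal protein score was centred within each group. The scripts were tested on simulated data.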

Additional observations from a re-analysis of the deposited data

Results flagged for a closer look

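What drew attention to these results was a tested difference between the calcium response of PKP4-KO cells at 24 h and that of another group, by the interaction term of edgeR's quasi-likelihood fit. Such a difference was called for 607 genes against WT, 213 against Rescue and 1667 against PKP4-KO at 72 h. All values here are log2 differences of the response.

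Against WT at 24 h, PKP4-KO cells responded more negatively in the mucosal keratin gene Krt4 (-4.35), at 0.960 to 2.61 CPM in PKP4-KO, and in the epidermal genes Cdsn (-3.72), Lypd5 (-3.31), Ivl (-2.31), Krt80 (-2.07), Sprr1a (-2.04), Tgm1 (-1.93) and Cldn4 (-1.55). Krt15, a basal keratin, read 489 to 824 CPM in HCM and 328 to 674 CPM in LCM in PKP4-KO and rose in WT from 6.30 to 8.07 CPM to 36.2 to 46.6 CPM (-2.23). The signalling and stress genes Areg (-3.89), Plk3 (-2.18), Arid5a (-2.12), Csf3 (-1.96), Trib3 (-1.96), Ttyh1 (-1.82), Il24 (-1.55), Chac1 (-1.45), Atf4 (-1.11) and Arhgef2 (-0.87) also responded more negatively, as did the proton pump subunit Atp6v0a1 (-1.88). The response was more positive in PKP4-KO for E2f2 (1.82), Megf6 (1.69), Id2 (1.27), Notch1 (1.22) and Gja1 (0.89). Id2 rose in PKP4-KO and read 102 to 123 CPM in LCM and 99.9 to 113 CPM in HCM in WT. Of these, the call was lost for Ttyh1 in 7 (-1.80 to -1.58), Notch1 in 6 (0.99 to 1.22) and Id2 in 4 (1.03 to 1.24) of the 12 fits that left out 1 library, and for all 3 without TMM factors. With both libraries that stood apart left out, Ttyh1 (-1.94), Notch1 (1.11) and Arhgef2 (-0.76) were not called.

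Against Rescue at 24 h, the response was more negative for Krt4 (-3.74), Crct1 (-3.22), Cdsn (-2.74), Vsig10l (-2.55), Ivl (-2.44), Lypd5 (-2.28), Sprr1a (-1.94), Ttyh1 (-1.94), Areg (-1.74), Plk3 (-1.66), Krt80 (-1.65), Atp6v0a1 (-1.59), Trib3 (-1.55) and Chac1 (-1.09). It was more positive for Tgfbi (1.32), which fell in Rescue from 70.0 to 93.9 CPM to 29.2 to 33.6 CPM and read 82.3 to 96.7 CPM in HCM and 90.0 to 94.9 CPM in LCM in PKP4-KO, and for Gja1 (0.69). The call was lost in fits that left out 1 library for Ttyh1 (10 of 12, -2.02 to -1.83), Chac1 (10, -1.12 to -1.02), Gja1 (9, 0.56 to 0.70), Sprr1a (5, -1.90 to -1.69) and Areg (3, -1.66 to -1.53). Without both libraries that stood apart, Ttyh1 (-2.06), Chac1 (-1.15), Sprr1a (-1.9) and Gja1 (0.47) were not called, and without TMM factors Ttyh1 (-1.89), Areg (-1.69) and Gja1 (0.69).

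At 72 h the response lay above that at 24 h for Slpi (4.12), Lypd5 (3.03), Dynap (2.91), Sprr1a (2.73), Ly6m (2.65), Ttyh1 (2.56), Gjb2 (2.28), Chac1 (2.16), Trib3 (1.87), Cldn4 (1.85), Plk3 (1.80), Ivl (1.79), Mapre2 (1.70), Tmem125 (1.63), Nipal4 (1.61), Tubb2a (1.61), Atf4 (1.44), Tgm1 (1.40), Areg (1.18), Arid5a (1.18) and Arhgef2 (0.69). It lay below that at 24 h for Grhl3 (-1.66), Trp63 (-1.64), Id2 (-1.45), Krt15 (-1.29) and Gja1 (-0.71). The values of Arhgef2, Areg and Arid5a depended on the scaling, since without TMM factors they were -0.02, 0.49 and 0.48 and not called, and that of Ivl was 1.08 and not called either. In fits that left out 1 library, the call was lost for Areg (10 of 12, 0.90 to 1.32), Arid5a (9, 1.01 to 1.25), Arhgef2 (6, 0.55 to 0.70) and Krt15 (2, -1.09 to -1.02). With both libraries that stood apart left out, Areg (1.26), Arid5a (1.03), Arhgef2 (0.57) and Gja1 (-0.5) were not called, and with the replicate block Areg (1.19) was not.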

How the results depend on the processing

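All 428 called genes kept the sign of their change in every fit that included them, while the number of calls moved. Without TMM factors, 124 genes were higher and 113 lower, and the differences numbered 366 (WT), 108 (Rescue) and 5387 (72 h). Without the filter these values were 138, 89, 349, 132 and 1100, and with only the groups compared in the fit 4, 6, 255, 56 and 818. DESeq2 gave 356 higher and 461 lower genes, and 905 (WT), 424 (Rescue) and 2069 (72 h) differences. The ribosomal protein score as a covariate gave 836, 773, 1734, 664 and 4952, and leaving out both HCM library 3 and LCM library 1 gave 126, 105, 395, 120 and 1067; these 2 settings were chosen after seeing the data. With single libraries left out, the ranges were 100 to 201 higher and 109 to 190 lower genes and 417 to 578, 103 to 274 and 932 to 2107 differences. The cause of these shifts was not tested. At this depth, genes near the floor of 3 counts, such as Flg and Fermt2, cannot be judged.

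HCM and LCM libraries with the same number correlated at -0.538, 0.709 and -0.701 in their deviations from the group means over 11688 genes. HCM library 3 correlated best with LCM library 1 (0.841), and these are the 2 libraries that stood apart. The deviations within a group depend on each other, so the correlations cannot decide whether the replicate numbers pair the samples. With the replicate block, 198 genes were higher and 205 lower, and the differences numbered 595, 224 and 1573. Of the 428 calls, 394 were also made with the block, 424 by DESeq2 and 428 with the covariate. The covariate was centred within each group, so it could take up spread but hardly move the difference between media. With at least 10 counts 380 were kept (40 genes were not fitted), without the filter 222 and without TMM factors 198. With 1 library left out 206 to 285 were kept, and 10 in the fit of only the groups compared. With the block, Ddit3, Orai2, Maff, Erbb3 and Prdx1 lost their calls among the genes named by rule. Among the other calls of genes reported here, those of Ivl, Tgm3, Id2, Gadd45a, Egln3, Idi1, Ddx58, Adamts1, Fhl1, Atp2b4 and Igfbp3 were lost without TMM factors, those of Lypd3, Maff, Src, Ddit3, Prdx1, Gsta3 and Tkt without the filter, and those of Cyp4f39, Serpinb5, Cgn, Gja1, Orai2, Flna, Tln1, Msmo1, Fads1, Erbb3 and Nrg1 under both. Without both libraries that stood apart, Glul (1.95), Trib2 (-2.16), Pik3ip1 (-1.54), Atf4 (-0.80), Tgfb1 (-0.61) and Atp2b4 (0.77) were among those not called. Differences called for genes named by rule numbered 46 (WT), 23 (Rescue) and 48 (72 h), and 17, 10 and 17 of these lost their call in at least 1 alternative fit, whereas the 24 with the lowest adjusted p kept it in all fits that included them.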

Other observations

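Reads on the added GFP-PKP4 sequence, which only Rescue cells should carry, were counted in all 6 PKP4-KO libraries at 24 h, at 36, 26 and 112 in HCM and 70, 43 and 31 in LCM. WT libraries of 24 h held 0 to 113 such reads, and Rescue libraries of 24 h 1902 to 7038.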
